A study of Mus musculus with 12 samples.

Results

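The immediate early transcription factors described here are Fos, Fosb, Fosl1, Jun, Junb, Egr1, Egr2, Egr3, Ier2 and Ier3. They were taken by gene name from the array files, which held 13 probes for these 10 genes among 41174 probes for 27680 genes in all. The study profiled mouse embryonic stem (ES) cells of 2 independent lines, named Stella-GFP and Dazl-GFP for the GFP construct each carries, with 1 one-colour Agilent array for each line, arm and day (12 arrays, 6 groups of 2). In the FBS arm the medium was DMEM with 15% fetal bovine serum, and in the other arm it was serum-free B27N2, which the labels name the 2i condition. LIF (leukemia inhibitory factor) was in the medium of all groups, all groups shared a layer of irradiated fibroblast feeders from mouse embryos, and RNA was taken at days 0, 3 and 10 in each arm. The 2i inhibitors were PD0325901, against the kinase MEK, at 1 µM, and Kenpaullone, against GSK3β, at 5 µM. The labels do not state whether cells of the FBS arm received inhibitors after day 0, nor what cells of the serum-free arm had received by day 0, so the arms are called FBS and serum-free. Each group held 1 array of each line, and p-values measure the spread between these arrays only. RNA came from whole cultures, so fewer cells of a type and less RNA per cell cannot be told apart.

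Immediate early genes are transcribed within minutes of a stimulus, without new protein synthesis. Growth factors, including those in serum, act through RAS, RAF, MEK and ERK, and ERK phosphorylates ETS-family partners of serum response factor (SRF) at CArG boxes. Cyclic AMP response elements (CRE), bound by CREB, give a further input to Fos. FOS and JUN proteins pair as the AP-1 factor, and EGR proteins are zinc finger factors that bind GC-rich sites. In mouse ES cells FGF4 drives ERK signalling, which MEK inhibition blocks in 2i culture. Messenger RNAs of this class are short-lived.

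Promoter windows (250 bases before to 50 after a start, RefSeq, GRCm38.p6) were at hand for 6 of the 10 genes: Fos, Fosb, Jun, Junb, Egr2 and Ier3. Stretches are printed below for the members whose windows held the CArG box or the core of the CRE, without regard to their response. Motifs were searched on both strands: the CArG box, the CRE TGACGTCA and its core TGACG, the AP-1 site TGANTCA, the EGR site GCGNGGGCG and the ETS core CCGGAAG. The core lies within the CRE, and of the other motifs none contains another. In the stretches below, 5′ to 3′ on the gene's strand, capitals mark the CRE core in Fos (chr12:85473741-85473848, plus strand), Fosb (chr7:19310081-19310125, minus) and Junb (chr8:84978830-84978874, minus), and 2 CArG boxes upstream of annotated starts of Egr2 (chr10:67537484-67537513 and chr10:67537787-67537816, plus).
Fos: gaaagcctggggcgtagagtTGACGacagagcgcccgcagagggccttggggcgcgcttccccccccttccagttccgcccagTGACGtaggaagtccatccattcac
Fosb: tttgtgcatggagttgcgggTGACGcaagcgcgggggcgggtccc
Junb: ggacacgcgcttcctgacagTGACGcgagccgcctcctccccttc
Egr2, first box: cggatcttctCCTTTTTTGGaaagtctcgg
Egr2, next box: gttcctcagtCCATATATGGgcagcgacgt
The CRE core occurred in 4 of the 6 genes (Egr2 also held it) and in 23.0% of all 27025 genes with a window. The CArG box occurred in Egr2 alone of the 6 and in 1.81% of all genes. Sites more than 250 bases before a start were not searched, so a gene without a match may hold one there. The EGR site occurred in Fosb alone of the 6, 50 bases before its start, and in 6.27% of all genes. No window of the 6 genes held the CRE (2.03% of all genes), the AP-1 site (8.97%) or the ETS core (9.93%), and those of Jun and Ier3 held none of the motifs searched. A match is a run of letters in the window and was not tested as a binding site.

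The 12 arrays had 64.0% to 74.4% of their spots well above background, and no spot was saturated. The array of Stella-GFP at day 3 in FBS was the dimmest, with a 75th percentile of signal of 454 units against up to 947. Its replicate spots varied most (CV 9.71%, against 5.81% at the lowest). The array of Dazl-GFP at day 3 in FBS was the next dimmest, at 562 units. Levels below are scaled intensities, put on 1 scale by setting each array's 75th percentile to 707.9 units; they compare arrays for 1 probe and not probes with each other. Differences are log2, tested with limma over all 12 arrays with the line as a block, and a gene is said to have changed where its p, adjusted over 21208 genes by Benjamini-Hochberg, was under 0.05. All 8 ES cell markers were well above background on every array, and so were all 16 feeder fibroblast markers. The arrays lay on 3 slides of 4, and at days 0 and 10 the arms were never together on 1 slide.

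Most of the genes differed between the arms at day 3, and none was called at day 0 or day 10. At day 3, 8 of the 10 were lower in the serum-free arm (Fos, Fosb, Fosl1, Jun, Junb, Egr1, Egr2 and Ier2), where 13.5% of all genes tested were lower. The median difference of the 10 was -1.89, against -0.21 for all genes tested. At day 0 none of the 10 was called (1.83% of all genes in either direction). There 1 of the 10 had an unadjusted p under 0.05, as did 4762 of all 21208 genes tested. At day 10 none was called (5.56%), and 5 of the 10 had an unadjusted p under 0.05, as did 5210 of the 21208. Within the FBS arm 7 of the 10 rose from day 0 to day 3 (all of the 8 but Fosl1), where 6.69% of all genes rose. Within the serum-free arm 2 of the 10 changed from day 0 to day 3, Jun upward and Fosl1 downward, against 13.8% of all genes in either direction. The FBS day 3 arrays enter both the arm comparison at day 3 and the FBS time course, so these counts share samples. With normexp background correction 2 of the 10, Fos and Egr2, were called between the arms at day 3 and none in the other comparisons, and a fit of only the 4 arrays compared called none at day 3. Without either FBS day 3 array fewer of the 10 were called higher in FBS from day 0 to day 3, and fewer of all genes were called as well.

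**Figure D1:**
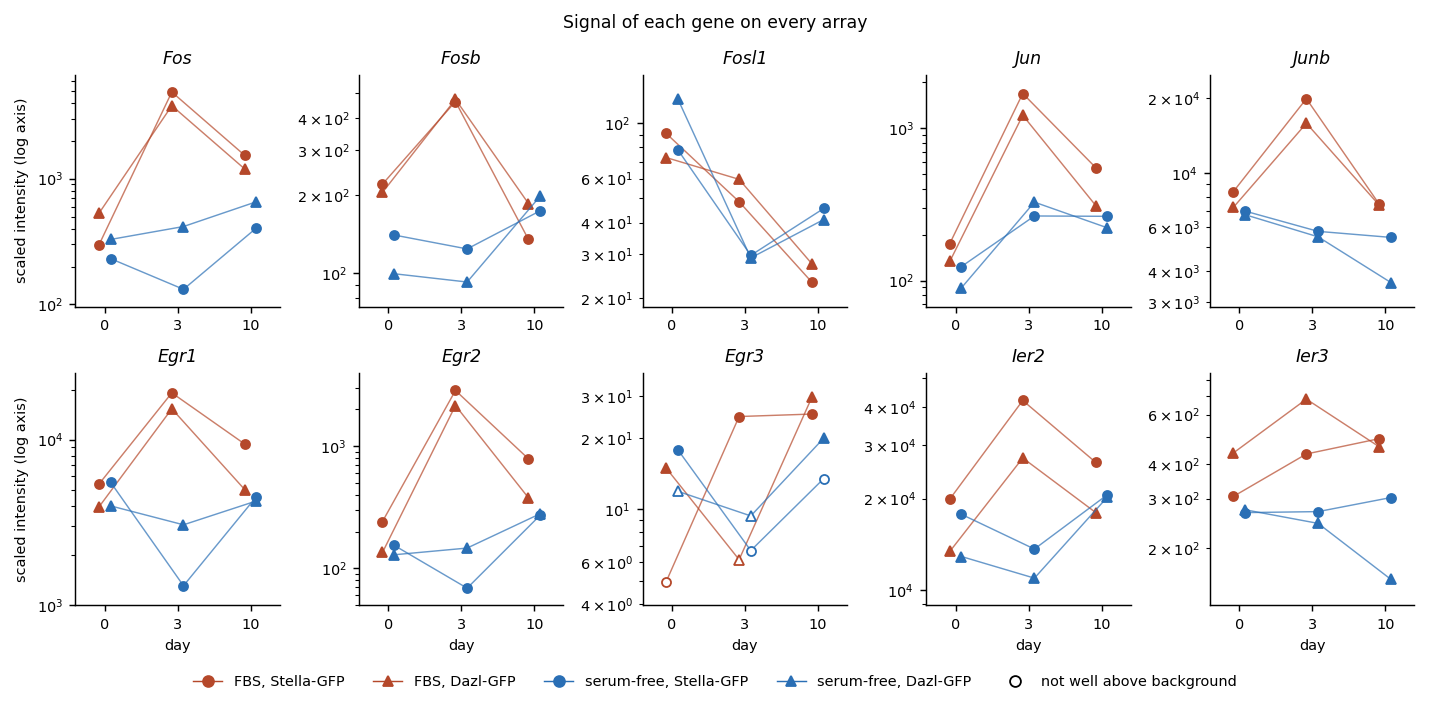
Scaled intensity (log axis) of the 10 genes on each of the 12 arrays by day; colour gives the arm, the symbol gives the line, and open symbols were not well above background. In Fos, Fosb, Jun, Junb, Egr1, Egr2 and Ier2 both FBS day 3 arrays lie above all 10 other arrays.

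In unscaled intensity the same held for all of these 7 but Ier2, where 7 of the 10 other arrays lay below both FBS day 3 arrays. The FBS day 3 arrays were the dimmest, so scaling raised them most. Unscaled, Ier2 (brighter probe) in FBS was 23200 in Stella-GFP and 17900 in Dazl-GFP at day 0, and 27000 and 21600 at day 3. Unscaled Fosl1 at day 3 was 31.1 and 47.3 in FBS, and 29.1 and 35.7 in the serum-free arm. Unscaled Fos at day 3 was 3139 and 3024 in FBS, and 129.5 and 513.8 in the serum-free arm.

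Fos encodes the founding FOS subunit of AP-1. In FBS its scaled intensity was 296 in Stella-GFP and 529 in Dazl-GFP at day 0, 4894 and 3809 at day 3, and 1531 and 1193 at day 10. Without serum it was 231 and 328 at day 0, 132 and 416 at day 3, and 406 and 656 at day 10. Both FBS day 3 arrays were the highest, both FBS day 10 arrays came next, and every serum-free array lay below those 4. Fos was 18.4-fold lower in the serum-free arm at day 3 (log2 difference -4.21, SE 0.47, limma adjusted p = 0.00274), by -5.22 in Stella-GFP and -3.19 in Dazl-GFP. In FBS it rose 10.9-fold from day 0 to day 3 (3.45, SE 0.47, limma adjusted p = 0.00776) and was still 3.42-fold above day 0 at day 10 (1.77, limma adjusted p = 0.0464). In the serum-free arm the lines moved opposite ways from day 0 to day 3, -0.81 in Stella-GFP and 0.34 in Dazl-GFP, and the difference was not called (limma adjusted p = 0.795).

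Fosb, a close relative of Fos, followed it at day 3 with a smaller range. Its scaled intensity in FBS was 221 in Stella-GFP and 206 in Dazl-GFP at day 0, 463 and 472 at day 3, and 135 and 186 at day 10. Serum-free values were 141 and 99.4 at day 0, 124 and 92.3 at day 3, and 174 and 199 at day 10. The FBS day 3 arrays stood above all others, while at day 10 the 2 arms were in the reverse order without a call (0.23, SE 0.25, limma adjusted p = 0.598). Fosb was 4.37-fold lower in the serum-free arm at day 3 (-2.13, SE 0.25, limma adjusted p = 0.00317) and rose 2.19-fold in FBS from day 0 to day 3 (1.13, limma adjusted p = 0.0295).

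Fosl1 encodes FRA1, a FOS-family subunit that is itself an AP-1 target in many cells, and it went another way. In FBS its scaled intensity was 91.0 in Stella-GFP and 72.8 in Dazl-GFP at day 0, 48.5 and 59.6 at day 3, and 23.1 and 27.3 at day 10. In the serum-free arm it was 78.2 and 124.9 at day 0, 29.6 and 28.9 at day 3, and 45.6 and 41.2 at day 10. All 4 day 0 arrays were above all 8 later arrays. Fosl1 fell 3.24-fold in FBS from day 0 to day 10 (-1.70, SE 0.25, limma adjusted p = 0.00668) and 3.38-fold in the serum-free arm from day 0 to day 3 (-1.76, SE 0.25, limma adjusted p = 0.00735). It was also lower in the serum-free arm at day 3 (1.84-fold, -0.88, SE 0.25, limma adjusted p = 0.0416). That call was lost with slide as a block (-0.35, adjusted p = 0.506), with quantile normalization and in the authors' table.

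Jun, the founding JUN subunit of AP-1, was called higher after day 0 in both arms, the one member to be so by the probe of highest mean. Its scaled intensity in FBS was 175 in Stella-GFP and 133 in Dazl-GFP at day 0, 1686 and 1213 at day 3, and 550 and 311 at day 10. Without serum it was 124 and 89.5 at day 0, 265 and 327 at day 3, and 264 and 222 at day 10. In each arm both later days lay above both day 0 arrays. Jun rose 9.38-fold in FBS from day 0 to day 3 (3.23, SE 0.25, limma adjusted p = 0.00349) and 2.80-fold in the serum-free arm (1.48, SE 0.25, limma adjusted p = 0.0132). The difference between these rises was -1.74 (SE 0.36) and was not called (limma adjusted p = 0.0599). At day 3 Jun was 4.86-fold lower in the serum-free arm (-2.28, SE 0.25, limma adjusted p = 0.00276).

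Junb encodes a JUN-family subunit with weaker activating function than JUN. On the brighter of its 2 probes the FBS scaled intensity was 8392 in Stella-GFP and 7243 in Dazl-GFP at day 0, 19960 and 15870 at day 3, and 7444 and 7377 at day 10. Serum-free values were 6992 and 6761 at day 0, 5787 and 5499 at day 3, and 5469 and 3586 at day 10. The FBS signal at day 10 was back in the range of day 0, and the serum-free signal was at its lowest at day 10. Junb was 3.16-fold lower in the serum-free arm at day 3 (-1.66, SE 0.19, limma adjusted p = 0.00289) and rose 2.28-fold in FBS from day 0 to day 3 (1.19, SE 0.19, limma adjusted p = 0.0114). The other probe was also lower in the serum-free arm at day 3 (-1.19, SE 0.22, limma adjusted p = 0.0110), and its FBS difference from day 0 to day 3 was 0.68 (limma adjusted p = 0.0873). At day 10 the arms differed on the other probe (-1.08, limma adjusted p = 0.0380) but not on the brighter one (-0.74, limma adjusted p = 0.0667).

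Egr1 is the best-known ERK and SRF target of the EGR family. In FBS its scaled intensity was 5380 in Stella-GFP and 3917 in Dazl-GFP at day 0, 19180 and 15370 at day 3, and 9405 and 4991 at day 10. In the serum-free arm it was 5541 and 3985 at day 0, 1312 and 3062 at day 3, and 4535 and 4268 at day 10. At day 0 the arms differed by 0.04 in Stella-GFP and 0.02 in Dazl-GFP, and at day 3 the serum-free Stella-GFP array was the lowest of all 12. Egr1 was 8.57-fold lower in the serum-free arm at day 3 (-3.10, SE 0.44, limma adjusted p = 0.00550) and rose 3.74-fold in FBS from day 0 to day 3 (1.90, SE 0.44, limma adjusted p = 0.0348). The serum-free difference from day 0 to day 3 was -1.23 (limma adjusted p = 0.108), with -2.08 in Stella-GFP and -0.38 in Dazl-GFP. With slide as a block the arm difference at day 3 was -2.95 (limma adjusted p = 0.0549) and the FBS rise 1.73 (limma adjusted p = 0.114).

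Egr2, known for its role in hindbrain and Schwann cell development, had the largest arm difference of the 10 at day 3. Its scaled intensity in FBS was 242 in Stella-GFP and 135 in Dazl-GFP at day 0, 2862 and 2155 at day 3, and 788 and 378 at day 10. Without serum it was 154 and 129 at day 0, 68.8 and 147 at day 3, and 272 and 280 at day 10. The order of the arrays was like that of Fos: FBS day 3, then FBS day 10, then all others. Egr2, whose promoter windows hold the CArG boxes shown above, was 24.7-fold lower in the serum-free arm at day 3 (-4.63, SE 0.46, limma adjusted p = 0.00202). It rose 13.8-fold in FBS from day 0 to day 3 (3.78, SE 0.46, limma adjusted p = 0.00591). At day 10 it was 3.03-fold above day 0 in FBS without a call (1.60, limma adjusted p = 0.0627).

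Egr3, known for its role in muscle spindle development, was near the detection limit. One of its 2 probes was never well above background, and the other was so on 6 of 12 arrays. On that probe the FBS scaled intensity was 4.96 in Stella-GFP and 15.0 in Dazl-GFP at day 0, 24.6 and 6.15 at day 3, and 25.2 and 29.8 at day 10. Serum-free values were 17.9 and 11.9 at day 0, 6.71 and 9.40 at day 3, and 13.5 and 19.99 at day 10. At day 3 the lines went opposite ways between the arms (-1.88 in Stella-GFP, 0.61 in Dazl-GFP), and no call was made (limma adjusted p = 0.535). It was well above background on 1 of 2 FBS day 3 arrays and on neither serum-free one, and the undetected FBS array lay below both of those, so no direction is given. Without the FBS day 3 array of Stella-GFP the fitted difference turned to 0.60.

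**Figure D2:**
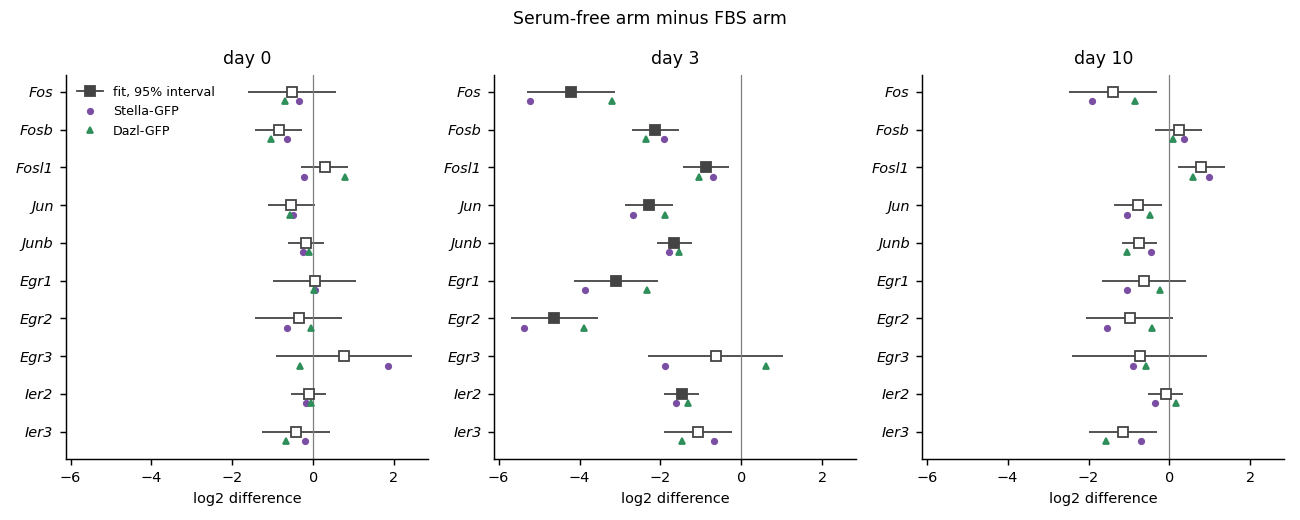
Log2 difference of the serum-free minus the FBS arm for each gene at days 0, 3 and 10: squares are the fit with its 95% interval (filled where the limma adjusted p was under 0.05), and small symbols are the difference within each line. At day 3, 8 squares are filled, from -4.63 in Egr2 to -0.88 in Fosl1, and at days 0 and 10 none is.

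Ier2 encodes a small nuclear regulator induced by serum, and its 2 probes, which the files pair with the same transcript, disagreed. On the brighter probe the FBS scaled intensity was 19910 in Stella-GFP and 13380 in Dazl-GFP at day 0, 42100 and 27210 at day 3, and 26320 and 17980 at day 10. In the serum-free arm it was 17740 and 12880 at day 0, 13630 and 10930 at day 3, and 20590 and 20230 at day 10. This probe was 2.77-fold lower in the serum-free arm at day 3 (-1.47, SE 0.19, limma adjusted p = 0.00400) and rose 2.07-fold in FBS from day 0 to day 3 (1.05, SE 0.19, limma adjusted p = 0.0157). On the dimmer probe, also well above background on all 12 arrays, the FBS scaled intensity was 59.7 and 215 at day 0, 409 and 1272 at day 3, and 278 and 1064 at day 10. Its serum-free values were 56.0 and 103 at day 0, 252 and 964 at day 3, and 358 and 807 at day 10. This probe rose from day 0 to day 3 in both arms (2.67 in FBS, limma adjusted p = 0.00573; 2.70 serum-free, limma adjusted p = 0.00412) and showed no call between the arms at day 3 (-0.55, limma adjusted p = 0.192). The lines were also in opposite order on the 2 probes. Dazl-GFP was 1.85 to 3.83 times Stella-GFP on the dimmer probe and 0.646 to 0.983 times on the brighter one, in 6 of 6 groups each. The result for Ier2 therefore holds for 1 of its 2 probes, and which of them reports the gene was not tested.

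Ier3, an early response gene that modulates ERK signalling and cell survival, showed no call in any comparison. In FBS its scaled intensity was 306 in Stella-GFP and 437 in Dazl-GFP at day 0, 434 and 681 at day 3, and 492 and 460 at day 10. Without serum it was 267 and 274 at day 0, 270 and 245 at day 3, and 303 and 154 at day 10. Serum-free arrays were below FBS arrays of the same line at every day, and the day 3 difference was -1.08 (SE 0.36, 95% interval -1.92 to -0.24, limma adjusted p = 0.0670).

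Whether the change from day 0 to day 3 itself differed between the arms was tested as an interaction. It was more negative in the serum-free arm for 3 of the 10 genes, against 1.14% of all genes: Egr2 (-4.27, SE 0.65, limma adjusted p = 0.0366), Fos (-3.68, SE 0.66, limma adjusted p = 0.0474) and Junb (-1.48, SE 0.27, limma adjusted p = 0.0487). The other Junb probe gave -1.05 without a call (limma adjusted p = 0.103). Another 5 of the 10 had an unadjusted p under 0.05 without a call. Of all 21208 genes tested 5188 had such a p, called or not. Among the 5 were Egr1 (-3.13, limma adjusted p = 0.0574) and Ier2 (-1.36, limma adjusted p = 0.0557). The difference was negative in both lines for 9 of the 10, with Egr3 the exception. None of the 3 calls was kept with slide as a block or without the line block, and in each case the sign stayed negative. Of all 21208 genes 0 were called with slide as a block and 20 without the line block, against 334 in the main fit. The loss is therefore not particular to these genes. For the change from day 0 to day 10 no member was called (0.0660% of all genes). There 1 of the 10 had an unadjusted p under 0.05, as did 4145 of the 21208 genes.

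From day 3 to day 10 in FBS, 3 of the 10 fell, against 0.410% of all genes: Jun (-1.79, limma adjusted p = 0.0405), Junb (-1.26, limma adjusted p = 0.0433) and Fosb (-1.56, limma adjusted p = 0.0448). The other Junb probe gave -0.81 without a call (limma adjusted p = 0.0938). Fos differed by -1.68 in both lines and Egr2 by -2.19, without a call (limma adjusted p = 0.0951 and 0.0641). These 3 calls were lost when any 1 array outside the FBS day 0 group was left out. In those fits the calls of all other genes were lost as well, so the loss is not particular to these genes. Against day 0, 3 of the 10 had changed by day 10 in FBS (13.0% of all genes), Fos and Jun upward and Fosl1 downward. In the serum-free arm 2 of the 10 had changed by day 10 (5.20% of all genes): Jun rose by 1.20 (limma adjusted p = 0.0421) and Fosl1 fell by 1.19 (limma adjusted p = 0.0400). The dimmer Ier2 probe, outside these counts, was higher at day 10 than at day 0 in FBS (2.26, limma adjusted p = 0.00499). It was so in the serum-free arm too (2.82, limma adjusted p = 0.0078). There the other Junb probe differed by -1.075 (limma adjusted p = 0.0412), and the brighter one by -0.63 without a call (limma adjusted p = 0.0974). From day 3 to day 10 in the serum-free arm none was called (2.25% of all genes), with differences of 1.14 in Fos, 1.13 in Egr1 and 1.46 in Egr2. In this comparison 5 of the 10 had an unadjusted p under 0.05, as did 5519 of 21208 genes tested.

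**Figure D3:**
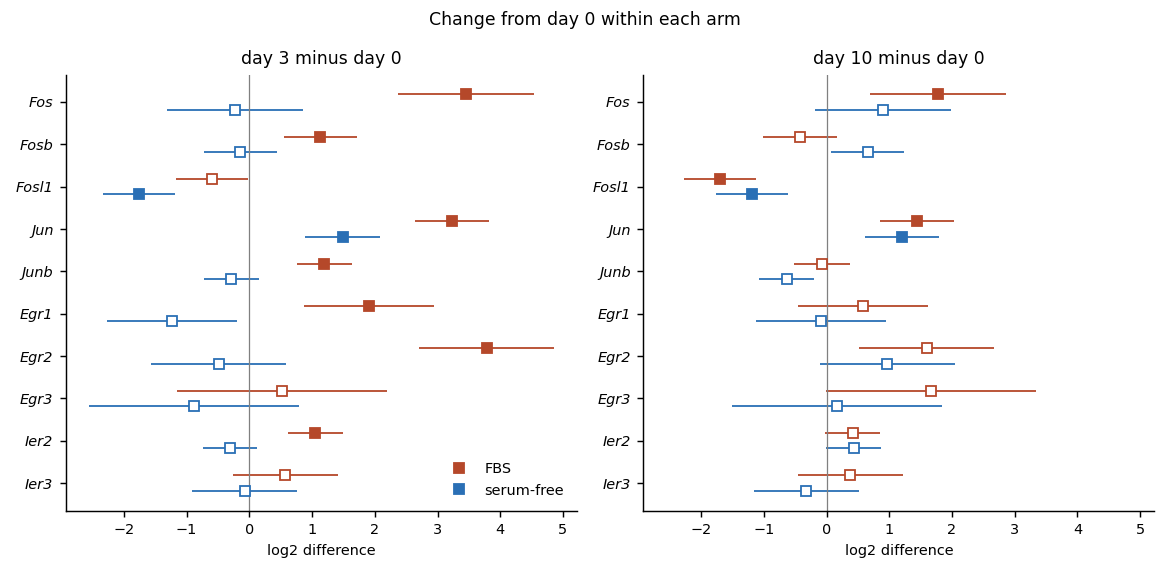
Log2 change from day 0 to day 3 (left) and to day 10 (right) in the FBS and serum-free arms, with 95% intervals; filled squares had a limma adjusted p under 0.05. At day 3 the FBS arm has 7 filled squares to the right of 0 and the serum-free arm 1, Jun.

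Across the 12 arrays Fos, Fosb, Jun, Junb, Egr1, Egr2 and Ier2 (brighter probe) moved together: Pearson r of the log2 level over their 21 pairs ran from 0.671 to 0.954, with a median of 0.779. The highest was between Fos and Egr2. Ier3 correlated with these 7 at 0.454 to 0.765, Egr3 at -0.046 to 0.371 and Fosl1 at -0.45 to 0.192. These are descriptions over 12 arrays that share lines, days and slides. The 7 genes are those highest on both FBS day 3 arrays, so positive correlations among them follow in part from how they were grouped. Among 15073 other genes the pattern most like that of Jun was that of Ppp1r15a (r = 0.963), the stress-inducible eIF2α phosphatase subunit, and others alike were Tanc2 (0.944), H2ac6, a histone H2A gene (0.931), and Rcan1, a calcineurin regulator (0.929). For Egr1 the most alike were Ptges3l (0.952), Ppp2r5b (0.949), Nt5c (0.945), B4gat1 (0.930) and Iscu (0.925). For Fos they were Slc35b2 (0.941), Qpctl (0.915), Aktip (0.914), Ube2d-ps (0.899) and Clk3 (0.895).

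Other genes of the response were described by lists, to be read against all genes tested, of which at day 3 the serum-free arm had 13.5% lower and 8.96% higher. Of 14 other immediate early transcription factors 13 were tested, and 6 were lower in the serum-free arm at day 3 and none higher (median difference -0.87). The furthest apart were Atf3, a stress-induced AP-1 partner (-2.94, limma adjusted p = 0.00261), Myc (-2.26, limma adjusted p = 0.0508, not called) and Egr4 (-2.01, limma adjusted p = 0.00780). Of 17 immediate early effectors and phosphatases tested, 8 were lower and none higher (median -0.94), led by Ptgs2, the inducible cyclooxygenase (-2.81, limma adjusted p = 0.0110; not well above background on either serum-free day 3 array, at least 6.28-fold lower), Ccn1, a matricellular protein gene (-2.19, limma adjusted p = 0.0106), and Plk3, a polo-like kinase (-1.70, limma adjusted p = 0.00725). In FBS from day 0 to day 3, 5 of the 13 factors rose and 1 fell, and 6 of the 17 effectors rose and 2 fell, where 6.69% of all genes rose and 5.18% fell. The kinases and SRF cofactors upstream of these genes showed no call at day 3 (0 of 10 tested, median -0.09); the furthest apart were Elk4 (0.55), Map2k2, which encodes MEK2 (-0.40), and Mapk3, which encodes ERK1 (-0.37). Of the EGR corepressors, Nab2 differed by -0.53 and Nab1 by 0.15, neither called. Of 9 AP-1 target genes tested 5 were lower and none higher (median -0.98), led by Cd44 (-4.43, limma adjusted p = 0.00162) and the matrix metalloproteinases Mmp13 (-3.35, limma adjusted p = 0.0397) and Mmp9 (-2.00, limma adjusted p = 0.0103). Neither metalloproteinase was well above background on a serum-free day 3 array. Mmp13 was so on both FBS day 3 arrays, which gives at least 2.34-fold lower, and Mmp9 on 1 of 2. From day 0 to day 3 in FBS 2 of the 9 AP-1 targets rose and 1 fell (median -0.56), and in the serum-free arm 6 of the 9 fell (median -2.25; 7.89% of all genes fell). Of 5 heat shock genes 1 was lower, Hspa1a (-3.17, limma adjusted p = 0.00188), while Hspb1 (0.65) and Hsph1 (-0.61) were not called.

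**Figure D4:**
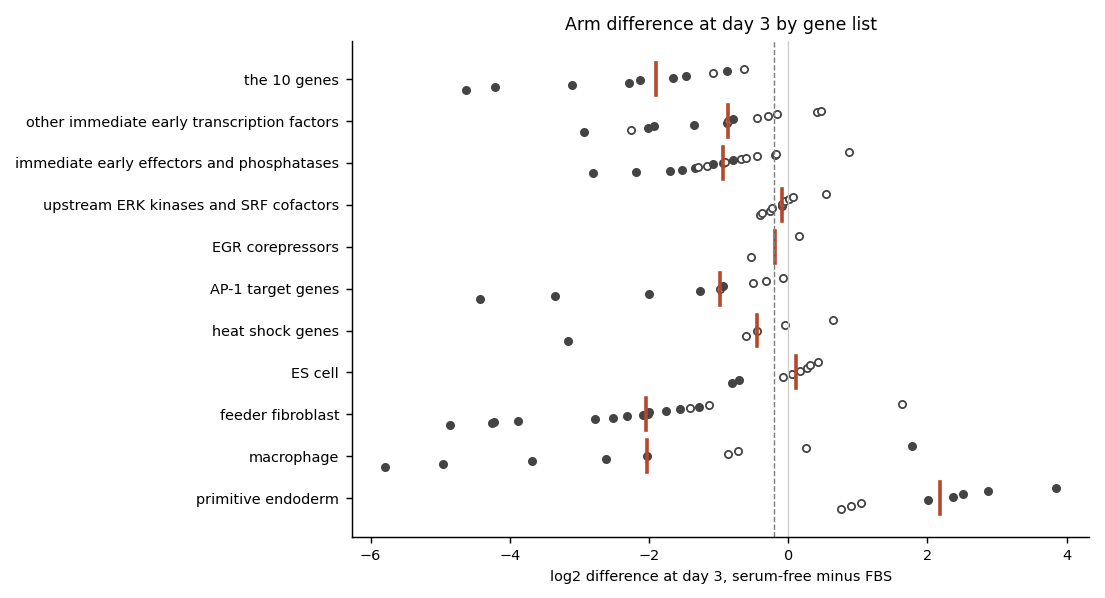
Log2 difference at day 3, serum-free minus FBS, for each tested gene of 11 lists: filled points had a limma adjusted p under 0.05, red bars are list medians, and the dashed line is the median of all genes tested (-0.21). The 10 genes have a median of -1.89, the feeder fibroblast markers -2.05 and the upstream kinases and cofactors -0.09.

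Markers of other cells also differed between the arms at day 3, some lower and some higher in the serum-free arm. Of 16 feeder fibroblast markers 13 were called lower in the serum-free arm and none was called higher (median -2.05). The furthest apart were S100a4 (-4.86), Thy1 (-4.26) and Twist2 (-4.23). Pdgfra went the other way without a call, at 31.6 to 46.24 in FBS and 82.31 to 172.3 in the serum-free arm. The summed scaled intensity of the 16 markers was 45200 to 84830 on the FBS day 3 arrays and 9309 to 14050 on the serum-free ones. It was 26960 to 33780 in FBS and 27430 to 31990 in the serum-free arm at day 0, and 32570 to 47650 and 15720 to 31080 at day 10. From day 0 to day 3 in FBS 3 of these 16 markers rose, where 7 of the 10 genes did (6.69% of all genes). In the serum-free arm 9 of the 16 fell, where 1 of the 10 genes did (7.89% of all genes). Of 9 macrophage markers 5 were lower and 1 higher (median -2.03), led by Lyz2 (-5.79), Ctss (-4.97, well above background on 1 of 2 serum-free arrays) and Tyrobp (-3.68, not well above background on either serum-free array, at least 9.56-fold lower). Their sum was 3766 to 6057 in FBS and 1283 to 1954 in the serum-free arm at day 3, with 6 or 7 of 9 detected in the latter. The macrophage marker Laptm5 went the other way, at 170.0 to 336.3 in FBS and 629.6 to 1077 in the serum-free arm. Of 8 primitive endoderm markers 5 were higher in the serum-free arm (8.96% of all genes were), led by Cubn (3.85), Sox17 (2.87) and Gata6 (2.52), with a sum of 2141 to 5500 against 791.3 to 922.8. The ES cell markers differed less, with 2 of 8 lower, Sall4 (-0.81) and Tdgf1 (-0.70), while Esrrb differed by 0.43 without a call. The part of feeder, macrophage or endoderm RNA in the differences of the 10 genes was not tested.

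Within slide 2, the one slide with both arms at day 3, all 8 called genes were lower on the serum-free array (Dazl-GFP) than on the FBS array (Stella-GFP), with differences of -4.29 in Egr2, -3.56 in Fos, -2.65 in Egr1 and -0.75 in Fosl1 at the smallest. Within slide 1 all 7 genes called in FBS from day 0 to day 3 were higher at day 3, from 0.74 in Ier2 to 3.58 in Egr2. The arrays of both slides were among those that gave the calls, so the shared signs are not an independent check. On slide 2 the line also differs with the arm. With slide as a block 6 of the 10 were called at day 3 between the arms and 5 of the 10 in FBS from day 0 to day 3. Of all 21208 genes tested 1433 and 747 were called there, against 4771 and 2516 in the main fit. At days 0 and 10 slide and arm cannot be told apart within a slide.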

How the data were processed

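Total RNA was labelled with Cy3 by Agilent's one-colour protocol, per the labels' protocols. The authors deposited scanner files with the processed intensity of 45018 spots per array (Agilent Feature Extraction 9.1.3.1, per the file headers), already background-corrected, and a table of intensity, used as an alternative. Its columns have medians of 1.0 to 1.0003, and 41526 of 43379 spots agreed within 0.01 log2 with the scanner's background-subtracted signal over the array's median; its values were floored at 0.1 before log2. Feature Extraction also wrote into the deposited files whether a spot was well above background, saturated or an outlier, coded as flags rather than a score.

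From these, log2 of the processed signal minus each array's 75th percentile was taken, with outlier spots left out, replicate spots averaged and the probe of highest mean kept per gene. Probes were named through RefSeq (GRCm38.p6): 22951 by accession, 9755 by symbol or synonym, and 8455 kept the file's name. Genes whose probe exceeded background clearly (Agilent's flag) on 2 or more arrays, 21208 in all, were tested with limma 3.58.1 (R 4.3.3) on the 6 groups with line as a block (5 residual and 2.53 prior degrees of freedom). The test was two-sided, with Benjamini-Hochberg adjustment over all genes. The 2 lines pair the arrays: their deviations correlated at -0.049 to 0.572 (median 0.156, above 0.1 in 13 of 15 pairs). Sequence motifs were searched in RefSeq promoter windows. The scripts were tested on simulated data.

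The members and lists were chosen with earlier results of these data known. All members and probes are named; from each other list the 3 genes furthest apart between the arms at day 3 are named, and the 5 genes most correlated with Fos, Egr1 and Jun, of which 1 is not reported here. A bound ("at least N-fold") sets the brighter group's mean against the dimmer arrays' lowest signal well above background, or the probe's own where higher. The number of arrays limits the precision. Alternatives were another normalization, background, filter, source of values, probe choice, block and set of arrays.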

Additional observations from a re-analysis of the deposited data

Results flagged for a closer look

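The change from day 0 to day 3 differed between the arms for 3 of the 10 genes, by a limma interaction term over all 12 arrays. In Egr2 the serum-free change minus the FBS change was -4.27 (SE 0.65, adjusted p = 0.0366), with a rise of 3.78 in FBS against -0.49 in the serum-free arm. In Fos it was -3.68 (SE 0.66, adjusted p = 0.0474), with 3.45 in FBS against -0.23. In Junb it was -1.48 (SE 0.27, adjusted p = 0.0487), with 1.19 in FBS against -0.29. The other Junb probe, also well above background on all 12 arrays, gave -1.05 without a call (limma adjusted p = 0.103). Each group held 2 arrays, too few to look for a single array that stands apart.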

How the results depend on the processing

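Over the alternatives run on the 10 genes between the arms at day 3 and on each other call of a gene, 1 value turned its sign, that of Egr3 at day 3, which was 0.60 without the FBS day 3 array of Stella-GFP and -1.86 without that of Dazl-GFP. With normexp background correction 2 of the 10 genes were called at day 3 between the arms and 0 in the FBS comparisons of day 3 or day 10 with day 0 and of day 10 with day 3, the serum-free comparisons of day 3 and day 10 with day 0, and the difference of day 3 responses; 87 genes in all were lower and 22 higher at day 3. On 1 array, Dazl-GFP at day 0 in FBS, 10 spots had a local background over 10 times the array's median. Replacing those, an alternative added after seeing the data, gave 10 called between the arms at day 3 and 2 at day 10. It gave 8 in FBS and 1 in the serum-free arm from day 3 to day 10, and 8 in the difference of day 3 responses. With it 7641 genes were lower at day 3 between the arms. Of all genes 4546 were called in FBS from day 3 to day 10, against 261 in the main fit. In the difference of day 3 responses 3142 were called, against 334. Fitting only the arrays compared called 0 members in each comparison that had calls but the serum-free change to day 3. It called 0 genes lower or higher at day 3 between the arms. Where 2 groups were compared, this fit had 1 residual degree of freedom. Requiring signal on all 12 arrays gave 1 member at day 10 between the arms, 5 in FBS from day 3 to day 10 and 6 in the difference of day 3 responses. Of the 16788 genes then tested 1438, 987 and 1059 were called there, against 1179, 261 and 334 of 21208 in the main fit. A variance trend gave 1, 6 and 6 members there, and 1 in the serum-free arm from day 3 to day 10. Over all genes it called 1733, 1180, 1571 and 1246, the last against 477 in the main fit. With slide as a block 908 genes were lower and 525 higher at day 3 between the arms. It called 1 member in FBS from day 0 to day 10 (1300 of all genes). It called 0 members in FBS from day 3 to day 10 (0 of all genes). The serum-free change to day 10 (11 of all genes) and the difference of day 3 responses (0 of all genes) also had 0. Without a filter these last 3 comparisons called 0 members each (23, 729 and 96 of all genes). Without the replicate block (no line term) they called 0, 1 and 0 members (6, 587 and 20 of all genes). In the main fit 261, 1103 and 334 of all genes were called in them. Quantile normalization called 1 for the serum-free change to day 10 and 1 for the difference of day 3 responses, shifted the median of all genes at day 3 from -0.21 to -0.08 and made 51.0% of the calls there higher in the serum-free arm, against 39.8%. The authors' table called 1 for the serum-free change to day 10 and 1839 genes lower at day 3. The cause of these changes was not tested.

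Leaving out 1 array at a time kept 7 or 8 of the 10 called at day 3 between the arms. It gave 2 to 7 in FBS from day 0 to day 3 (2 without Stella-GFP and 3 without Dazl-GFP at day 3; 5 and 4 without them at day 0) and 1 to 4 from day 0 to day 10 (1 without Stella-GFP at day 0 or day 10). It gave 0 to 3 from day 3 to day 10 in FBS, 3 without an FBS day 0 array and 0 without any other. It gave 0 to 2 in the serum-free arm to day 3 (0 without Dazl-GFP at day 0, 1 without Stella-GFP at day 0 or either array at day 3), and 0 to 1 to day 10, whichever array was left out. For the difference of day 3 responses it gave 0 to 3: 3 without Stella-GFP at day 0 in FBS, 2 without Dazl-GFP at day 3 in the serum-free arm, 1 without either FBS day 10 array and 0 without any other. Genes lower at day 3 numbered 612 to 3423 and genes higher 420 to 2313, the fewest without an array of either day 3 group. In the fits that called none of the 10 in FBS from day 3 to day 10, no other gene was called either. Leaving out an array of either group compared also lowered the calls over all genes in each change from day 0 within an arm. For the difference of day 3 responses no gene at all was called without an FBS day 3 array or a serum-free day 0 array. The same held without the serum-free day 3 array of Stella-GFP. Signal over background limits Egr3.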
